A study of Mus musculus with 7 samples.

Results

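The tumour suppressor p53 (gene Trp53) and the genes around it were followed in haematopoietic stem cells (HSCs) from old and young mice. The list held p53 regulators and established p53 targets, without Cdkn1a, Btg2 and the BCL2 family. Of the 24015 gene symbols in the deposited count table, 44 were members, of which Cop1 and Tigar were listed under the older symbols Rfwd2 and 9630033F20Rik. There were 42 members with at least 1 count, and 37 with enough counts to be tested. Trp63 and Trp73, the other genes of the p53 family, had no count in any library. Ppp1r13l, Zmat3, Tigar, Gdf15 and Epha2 had too few counts for the test.

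The HSCs came from the bone marrow of C57BL/6 mice and were isolated by cell sorting with the surface phenotype LSK CD150+ CD48-, where LSK stands for cells without lineage markers that carry Sca-1 and c-Kit. There were 3 libraries from old HSCs and 4 from young HSCs, with no treatment or genetic change stated for either group. The labels give neither the ages nor whether a library came from 1 mouse or several, so p-values measure the spread between these samples, which may be in part technical. The question was how transcription in HSCs differs with age.

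In an unstressed cell p53 is kept low by Mdm2 and the related Mdm4, which bind it and, through Mdm2, mark it for degradation. DNA damage or other stress frees p53, which then switches on genes that halt the cell cycle, repair damage, alter metabolism or start cell death, and also Mdm2 itself, which closes a feedback loop. In HSCs p53 is known to favour quiescence and to limit the survival of damaged cells.

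The stretches before the start sites of 5 members are shown because 3 of them, Sesn1, Plk2 and Gadd45g, had the old libraries above all young ones. Mdm2 and Ccng1 were added as being among the established targets of p53, and p53 activity itself was not tested. They are the 250 bases upstream of an annotated start, 5′ to 3′, from RefSeq on build GRCm38.p6, which is a later build than the mm9 named for the counts. Capitals mark matches to the p53 half-site consensus (10 bases) in Sesn1, Mdm2 and Ccng1, and TGACGTCA, the cyclic AMP response element, in Plk2.
Sesn1, chr10:41887189-41887438, plus strand: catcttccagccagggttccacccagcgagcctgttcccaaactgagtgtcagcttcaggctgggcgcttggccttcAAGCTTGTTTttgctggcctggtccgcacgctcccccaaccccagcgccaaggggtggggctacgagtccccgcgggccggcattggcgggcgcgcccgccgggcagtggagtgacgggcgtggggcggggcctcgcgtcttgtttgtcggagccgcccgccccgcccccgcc
Plk2, chr13:110394794-110395043, plus strand: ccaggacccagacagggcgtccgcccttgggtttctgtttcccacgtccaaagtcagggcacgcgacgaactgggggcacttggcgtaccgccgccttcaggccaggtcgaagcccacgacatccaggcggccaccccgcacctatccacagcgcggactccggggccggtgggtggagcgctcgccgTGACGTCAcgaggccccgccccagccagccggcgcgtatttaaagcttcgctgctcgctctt
Gadd45g, chr13:51846425-51846674, plus strand: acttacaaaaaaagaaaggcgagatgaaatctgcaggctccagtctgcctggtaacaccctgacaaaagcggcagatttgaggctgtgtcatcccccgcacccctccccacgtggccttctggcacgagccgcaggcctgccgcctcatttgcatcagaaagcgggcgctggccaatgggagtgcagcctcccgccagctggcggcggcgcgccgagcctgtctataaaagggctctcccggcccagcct
Mdm2, chr10:117710759-117711008, minus strand: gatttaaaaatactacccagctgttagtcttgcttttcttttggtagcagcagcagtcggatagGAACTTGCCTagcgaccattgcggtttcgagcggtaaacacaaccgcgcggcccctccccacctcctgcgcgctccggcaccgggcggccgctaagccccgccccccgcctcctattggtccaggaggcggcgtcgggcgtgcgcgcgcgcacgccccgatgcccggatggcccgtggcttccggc
Ccng1, chr11:40755287-40755536, minus strand: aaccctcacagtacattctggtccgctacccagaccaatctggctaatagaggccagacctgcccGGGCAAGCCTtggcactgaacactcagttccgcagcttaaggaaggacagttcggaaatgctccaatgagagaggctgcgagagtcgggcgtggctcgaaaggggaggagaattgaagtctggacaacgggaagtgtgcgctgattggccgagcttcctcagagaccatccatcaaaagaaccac

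The half-site of Sesn1, AAGCTTGTTT, began 173 bases before the start, that of Mdm2, GAACTTGCCT, 186 bases before it and that of Ccng1, GGGCAAGCCT, 185 bases before it. The stretch before the other annotated start of Sesn1 held none, and neither did those of Plk2 and Gadd45g. RefSeq promoters were found for 37 of the 44 members, with 53 starts in all. A half-site stood in 9 of the 53 windows (16.98%), in Aen, Ccng1, Ei24, Gadd45a, Mdm2, Rchy1, Rps27l, Sesn1 and Trim24, against 7.13% of the 32851 windows of all genes. TGACGTCA, 62 bases before the start of Plk2, stood in 1.55% of all windows and, among the members, also in Epha2. TGANTCA, the AP-1 motif, was found in Fas and Mdm4 and in 6.75% of all windows. All 3 motifs read as themselves on the other strand, so 1 search covers both, and none of the stretches shown held more than 1 of them. A match is a string of letters and was not tested as a binding site, and these windows do not cover introns, where p53 is known to bind in several of its targets.

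No member passed the threshold of an adjusted p under 0.05 in the test over all 11506 genes (edgeR's quasi-likelihood test with Benjamini-Hochberg adjustment), which 0.252% of all tested genes passed (0.235% higher and 0.0174% lower in old HSCs). At an unadjusted p under 0.05 there were 5 of 37 members (13.5%), Plk2, Sesn1, Gadd45g and Ndrg1 with higher and Steap3 with lower levels in old HSCs, where 9.12% of all tested genes passed (4.62% higher and 4.49% lower). With DESeq2, 3 members passed at an adjusted p under 0.05, Plk2, Sesn1 and Steap3, against 3.75% of all tested genes, and with limma-voom none did, against 0.435%. Steap3 held 3 counts in all in old HSCs and had enough counts to be tested only through its young libraries. Its p-values are thus no independent support for a difference. In Plk2, Sesn1, Gadd45g and Ndrg1 every old library lay above every young one, which held for 7.55% of all tested genes, and in no tested member did every old library lie below, which held for 5.18%. Of the tested members, 22 had a positive and 15 a negative log2 fold change, old over young, where 48.5% of all tested genes had a positive one. The median was 0.26, and over all tested genes it was -0.03. Leaving out 1 old library at a time put it at 0.04 (old 1), 0.17 (old 2) and 0.03 (old 3). It was 0.07 without young 1 and 0.01 when young 2 was left out as well, and it was 0.41 with limma-voom and 0.48 with the replicate number as a block, fits in which the median of all genes was 0.08 and 0.10.

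**Figure D1:**
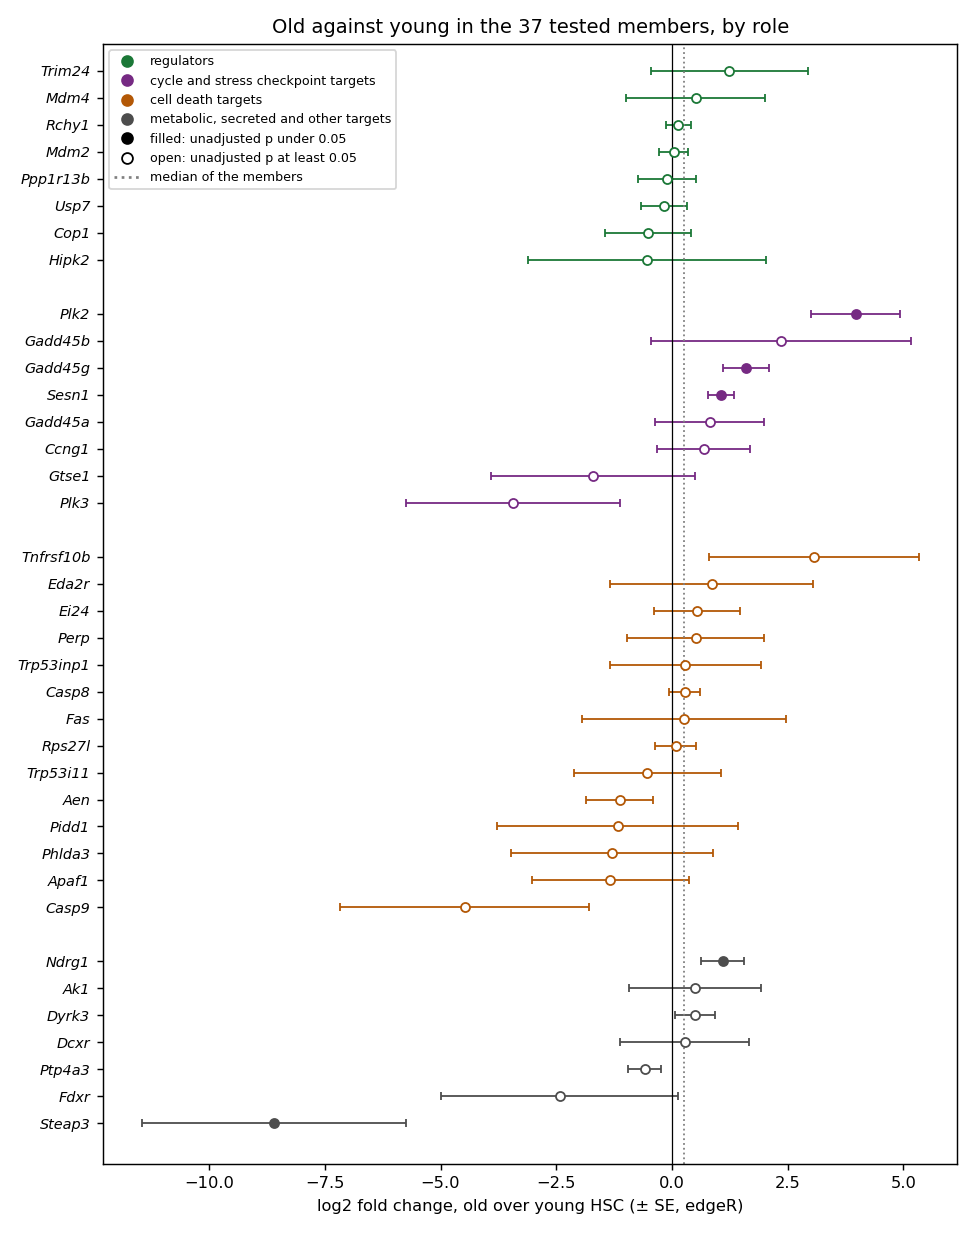
Log2 fold change (old over young HSCs, ± SE, edgeR) of the 37 tested members on the horizontal axis, grouped by role, with filled points for an unadjusted p under 0.05 and a dotted line at the members' median of 0.26. Plk2 is farthest to the right among the filled points at 3.97 and Steap3 farthest to the left at -8.60, and the regulators lie between -0.54 and 1.24.

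The libraries held 27369677 to 32401925 counts in old and 22203806 to 27146186 in young HSCs. A level here is in CPM, the counts scaled to a common library size with TMM factors, and is not corrected for gene length, so levels are compared between libraries and not between genes. A count of 0 allowed up to 0.0929 to 0.137 CPM, the worth of 3 counts, which covers counting error only. Young 1 and young 2 stood apart from the other libraries on the principal components (first component 220.9 and 53.4, others -90.4 to -18.3; second component 196.9 in young 2, others -80.2 to 24.3). In young 1, 10 of the 37 tested members had no count and in young 2 there were 8, against 3 to 5 in each old library, 2 in young 3 and 0 in young 4. Over all tested genes, the share with no count was 5.16% to 8.20% in old and 14.05% and 11.81% in young 1 and young 2. All 12 HSC markers examined were detected, with a summed level of 3114 to 3194 CPM in old and 1855 to 2911 CPM in young HSCs. Ebf1, Pax5, Ms4a1, Cd3e, Ncr1, Ltf, Csf1r, Hba-a1, Hbb-b1, Slc4a1 and Lepr, which mark lymphocytes, mature myeloid, red and stromal cells, were at 0 in every library. Other genes of the same marker lists were present, among them Cd79b at 73.4 to 191 CPM in old and 122 to 185 CPM in young HSCs, and Nkg7 at 21.3 to 104.7 CPM in old and 65.4 to 382 CPM in young HSCs. Epor had 11.1 to 43.4 CPM in old and 39.98 to 60.1 CPM in young HSCs, Klf1 had 0 to 24.9 CPM in old and 14.5 to 53.97 CPM in young HSCs, and Emcn had 76.6 to 113 CPM in old and 50.97 to 70.4 CPM in young HSCs. The part of such cells in the members' levels was not tested.

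The upstream regulators of p53 gave no call, and their levels overlapped between old and young HSCs throughout. Mdm2, the ubiquitin ligase that degrades p53, had 112, 78.0 and 103 CPM in the old libraries and 121, 110.1, 82.3 and 66.9 CPM in the young ones. The ranges overlapped, with means of 97.8 ± 17.8 CPM in old (SD, n = 3) and 95.04 ± 24.8 CPM in young HSCs (SD, n = 4). The log2 fold change was 0.04 ± 0.31 (SE; adjusted p = 0.992, edgeR). The small difference turned negative in 6 of the 16 other fits, as with scaling by library size alone (-0.05). Mdm4, which blocks the activation domain of p53, had 35.5, 27.3 and 0.0384 CPM in the old libraries and 20.8, 1.83, 22.5 and 13.4 CPM in the young ones. It was nearly absent from old 3, where it held 1 count, and low in young 2, so that the log2 fold change was 0.52 ± 1.498 (adjusted p = 0.985) with all libraries and -0.10 without old 1.

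Among the other ubiquitin ligases of p53, Rchy1 was found in every library, at 351 to 466 CPM in old and 274 to 521 CPM in young HSCs. Cop1 had 4.83 to 27.9 CPM in old and 10.2 to 22.6 CPM in young HSCs. Trim24 had 5.82 to 17.0 CPM in old HSCs, and in the young it had no count in young 1 and 3.52 to 9.90 CPM in the other libraries. Usp7, the deubiquitinase that acts on both p53 and Mdm2, spread over 39.1 to 87.0 CPM in old and 33.2 to 106.8 CPM in young HSCs. Hipk2, a kinase that phosphorylates p53, was found in 1 of 3 old and 3 of 4 young libraries, at 12.8 CPM in old 3 and 5.26 to 10.6 CPM in young 2, young 3 and young 4. The partner proteins of the ASPP family act in opposite directions: Ppp1r13b, which favours the death programme, had 34.2 to 92.8 CPM in old and 14.9 to 112.6 CPM in young HSCs, while Ppp1r13l, the inhibitory member, was at 0 in all libraries but young 3, which held 2 counts. The 8 tested regulators had log2 fold changes between -0.54 and 1.24, with a median of -0.03, and none had an unadjusted p under 0.05, against 9.12% of all tested genes.

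**Figure D2:**
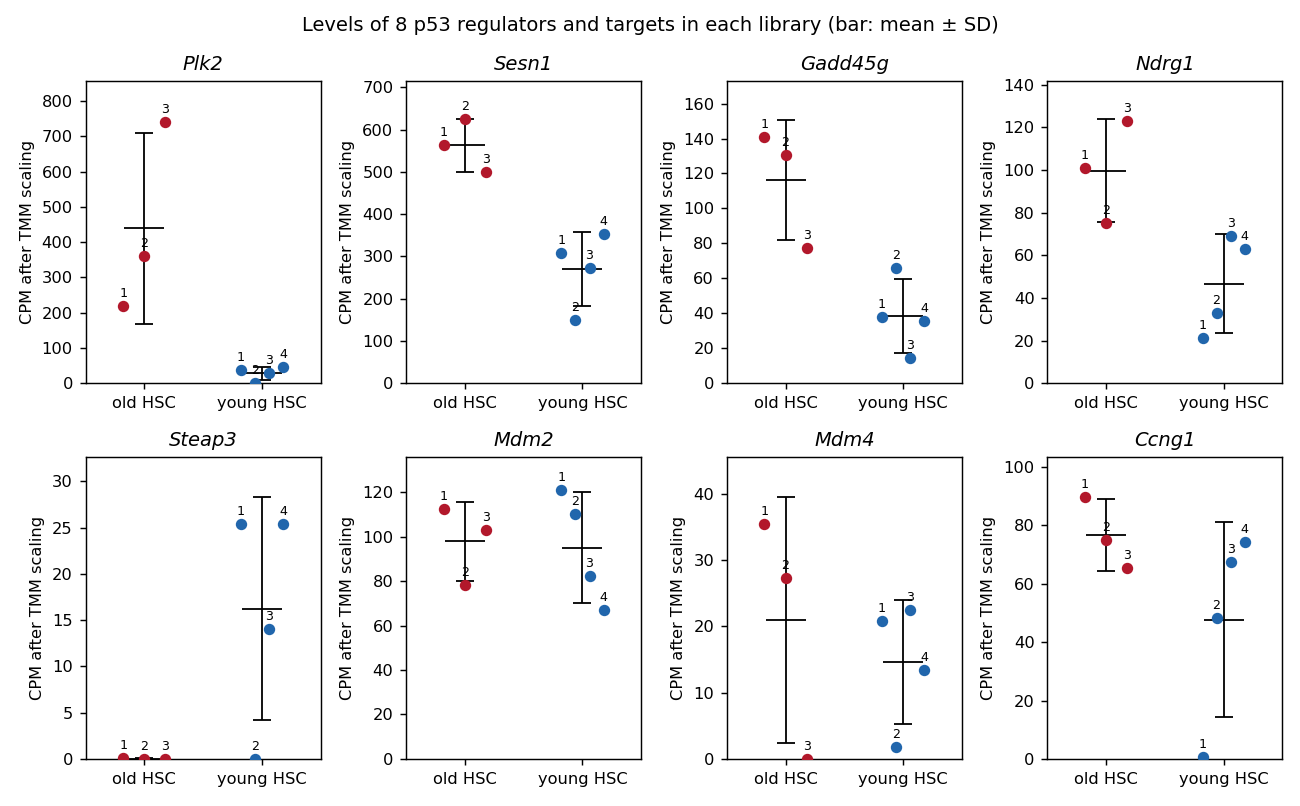
Levels (CPM after TMM scaling, vertical axis from 0) of 8 members in each library of old (red) and young (blue) HSCs, with the library number above each point and the mean ± SD as bars, cut at 0. All 3 old libraries lie above all 4 young ones for Plk2, Sesn1, Gadd45g and Ndrg1, while Mdm2, Mdm4 and Ccng1 overlap.

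The targets that act on the cell cycle and on stress checkpoints held the members with the smallest p-values. Of 8 tested, 3 had an unadjusted p under 0.05 in edgeR (37.5%), against 9.12% of all tested genes, and none was called. The lists were chosen with earlier results of these data known, so this share is no test of the group. Plk2, a polo-like kinase induced by stress and by mitogens, had 218, 359 and 742 CPM in the old libraries and 36.4, 0.731, 30.3 and 44.8 CPM in the young ones. Each old library was several times above the highest young one, and young 2 was nearly empty. Plk2 averaged 439.8 ± 270.7 CPM in old HSCs (SD, n = 3), against 28.03 ± 19.2 CPM in young HSCs (SD, n = 4), which gave a log2 fold change of 3.97 ± 0.97 (unadjusted p = 0.00252 and adjusted p = 0.171, edgeR). The adjusted p was 0.0174 with DESeq2, 0.0420 without young 2 and 0.0388 when only genes averaging 50 CPM or more were tested. These were the only 3 of 16 other settings in which Plk2 passed. It was 0.138 with limma-voom and reached 0.677 among the settings in which Plk2 did not pass. On the log2 scale the difference was 3.36 without old 3 and 3.57 without young 2.

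Sesn1 encodes sestrin, which restrains mTOR signalling and lowers oxidative stress. It had 563, 626 and 500.4 CPM in the old libraries and 309, 149.7, 272 and 353 CPM in the young ones. The old libraries were close to each other and all lay above the young. The log2 fold change was 1.06 ± 0.28 (unadjusted p = 0.00457 and adjusted p = 0.204, edgeR), with an adjusted p of 0.0213 by DESeq2. It stayed between 0.86 and 1.21 when any 1 library was left out. Sesn2 and Sesn3, the paralogues of Sesn1 outside the list, had 0 to 13.3 CPM and 3.71 to 6.23 CPM in old HSCs and 0 to 20.2 CPM and 0.548 to 18.05 CPM in young HSCs.

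The 3 Gadd45 genes encode small proteins that bind stress kinases and cyclin-dependent kinases. Gadd45g had 141, 130.8 and 77.3 CPM in the old libraries and 37.7, 65.8, 14.2 and 35.9 CPM in the young ones. The groups did not overlap, although old 3 and young 2 were near each other. The log2 fold change was 1.60 ± 0.50 (unadjusted p = 0.0105 and adjusted p = 0.295, edgeR; adjusted p = 0.0962, DESeq2). Gadd45a had 13.03, 10.3 and 7.15 CPM in the old libraries and 8.98, 7.90, 1.63 and 4.597 CPM in the young ones, which overlapped at old 3. Gadd45b was present in old 1 and old 3 at 31.2 and 8.99 CPM and in young 4 at 10.4 CPM, and at 0 in old 2 and in the other young libraries. The log2 fold changes were 0.81 ± 1.19 for Gadd45a and 2.36 ± 2.81 for Gadd45b (adjusted p = 0.964 and 0.938, edgeR).

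Ccng1, which encodes cyclin G, had 89.7, 75.1 and 65.3 CPM in the old libraries and 0.613, 48.4, 67.5 and 74.4 CPM in the young ones. Young 1 was nearly empty, and the other young libraries reached into the range of the old. The log2 fold change was 0.68 ± 0.999 (adjusted p = 0.964, edgeR) and 0.27 without young 1. Plk3, the paralogue of Plk2, had 2.68, 0.0310 and 0 CPM in the old libraries and 19.6, 0.320, 9.75 and 9.51 CPM in the young ones. Its mean was thus lower in old HSCs while that of Plk2 was higher, and the groups overlapped at young 2 (log2 fold change -3.43 ± 2.31, adjusted p = 0.800). Gtse1, a microtubule-associated protein of late cell cycle phases that restrains p53, had 10.7, 0 and 2.92 CPM in old libraries and 13.8, 0, 25.5 and 19.5 CPM in young ones (adjusted p = 0.947).

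Values of other gene groups differed between the same libraries. Immediate early genes are those a cell switches on first after a stimulus or handling, and a set of 15 had a summed level of 6524 to 9658 CPM in old and 2910 to 4844 CPM in young HSCs. All 13 tested lay above 0 in log2 fold change (median 1.13). Fos and Zfp36 passed the test over all genes, and 0 or 1 of the set passed when any 1 library was left out. A set of 20 mitotic genes had a summed level of 249 to 840.04 CPM in old and 1572 to 3159 CPM in young HSCs. All 20 lay below 0 in log2 fold change (median -2.0016), and none passed over all genes in edgeR, although 14 had an unadjusted p under 0.05 and DESeq2 called 10. Progenitor markers (Cd34, Cd48, Flt3, Mpo and Elane) summed to 85.2 to 135.004 CPM in old and 261 to 414 CPM in young HSCs, with Cd48, Flt3 and Mpo at 0 in all old libraries. Although the cells were sorted as CD48-, Cd48 had 6.88, 1.87, 24.5 and 16.6 CPM in the young libraries. DESeq2 called the 3 tested markers, Cd34, Cd48 and Flt3, lower in old HSCs, and edgeR called none. Cd48 and Flt3 had enough counts to be tested only through the young libraries. The part of these groups in the levels of Plk2, Gadd45g, Gtse1 and Plk3 was not tested. In bulk RNA, fewer cells with a transcript and less of it per cell cannot be told apart.

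The cell death targets gave no call and no member with an unadjusted p under 0.05 among 14 tested, where 9.12% of all tested genes had one. Casp8, the initiator caspase of death receptors, had 299.8, 314 and 198 CPM in the old libraries and 113, 272, 263 and 248 CPM in the young ones. Without young 1 its levels lay in the same range in both groups, and the log2 fold change was 0.05, against 0.27 ± 0.33 with all libraries. Casp9, the initiator caspase of the mitochondrial pathway, had at most 0.922 CPM in old HSCs and 7.08 and 24.2 CPM in young 3 and young 4, with at most 0.0913 CPM in young 1 and young 2. Apaf1, the scaffold that activates it, had 0 to 13.6 CPM in old and 2.79 to 52.9 CPM in young HSCs. Both genes overlapped between the groups (adjusted p = 0.733 for Casp9 and 0.946 for Apaf1, edgeR).

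Fas, the receptor of Fas ligand, had 29.6, 9.69 and 0.615 CPM in the old libraries and 0, 17.9, 0 and 26.5 CPM in the young ones. It was present or absent within both groups, with a log2 fold change of 0.26 ± 2.21 (adjusted p = 0.992). Tnfrsf10b, the TRAIL death receptor, was high only in old 3 at 19.1 CPM and at most 0.415 CPM in the other old and 2.28 CPM in the young libraries. Without old 3 its log2 fold change was -1.59, against 3.07 ± 2.26 with all libraries. Eda2r, a receptor of ectodysplasin, had 0, 10.6 and 32.4 CPM in old and 0, 8.13, 22.6 and 0.905 CPM in young libraries. Pidd1, the scaffold of the PIDDosome, had 0 to 9.47 CPM in old and 0 to 28.7 CPM in young HSCs.

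Zmat3, an RNA-binding zinc finger protein, was at 0 in all 3 old libraries and had 8.63, 0, 0.253 and 5.01 CPM in the young ones. Its mean of 3.47 CPM in young HSCs made it at least 32.4-fold lower in old, taking 3 counts per library as the limit. That bound covers counting error only and not the spread between libraries. The bound was 16.4-fold without young 1, young 2 was at 0 too, and the gene was too rare for the test. Aen, a nuclease of apoptosis, was even in old HSCs, at 15.1, 16.8 and 15.2 CPM, and spread in young HSCs, at 14.3, 28.3, 65.2 and 29.4 CPM (log2 fold change -1.12 ± 0.73, adjusted p = 0.778). Perp, a membrane protein of the death programme, had 20.6 to 46.7 CPM in old and 0 to 57.03 CPM in young HSCs. Phlda3, a repressor of Akt, had 0 to 6.62 CPM in old and 0 to 15.8 CPM in young HSCs. Ei24, an endoplasmic reticulum protein, had 11.2 to 40.1 CPM in old and 4.70 to 27.7 CPM in young HSCs.

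Rps27l, a ribosomal-protein-like target, had 59.3 to 153.6 CPM in old and 57.4 to 167 CPM in young HSCs, and its reads could be shared with the near-identical Rps27. Trp53inp1, a stress protein of autophagy and death, had 5.92 to 17.2 CPM in old and 0 to 20.5 CPM in young HSCs. Trp53i11 had 2.32 to 31.2 CPM in old and 0 to 52.5 CPM in young HSCs. In each of these 3 genes the ranges of the groups overlapped. Of the 14 tested death genes, 10 lacked counts in 1 library or more (71.43%), against 27.01% of all tested genes.

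**Figure D3:**
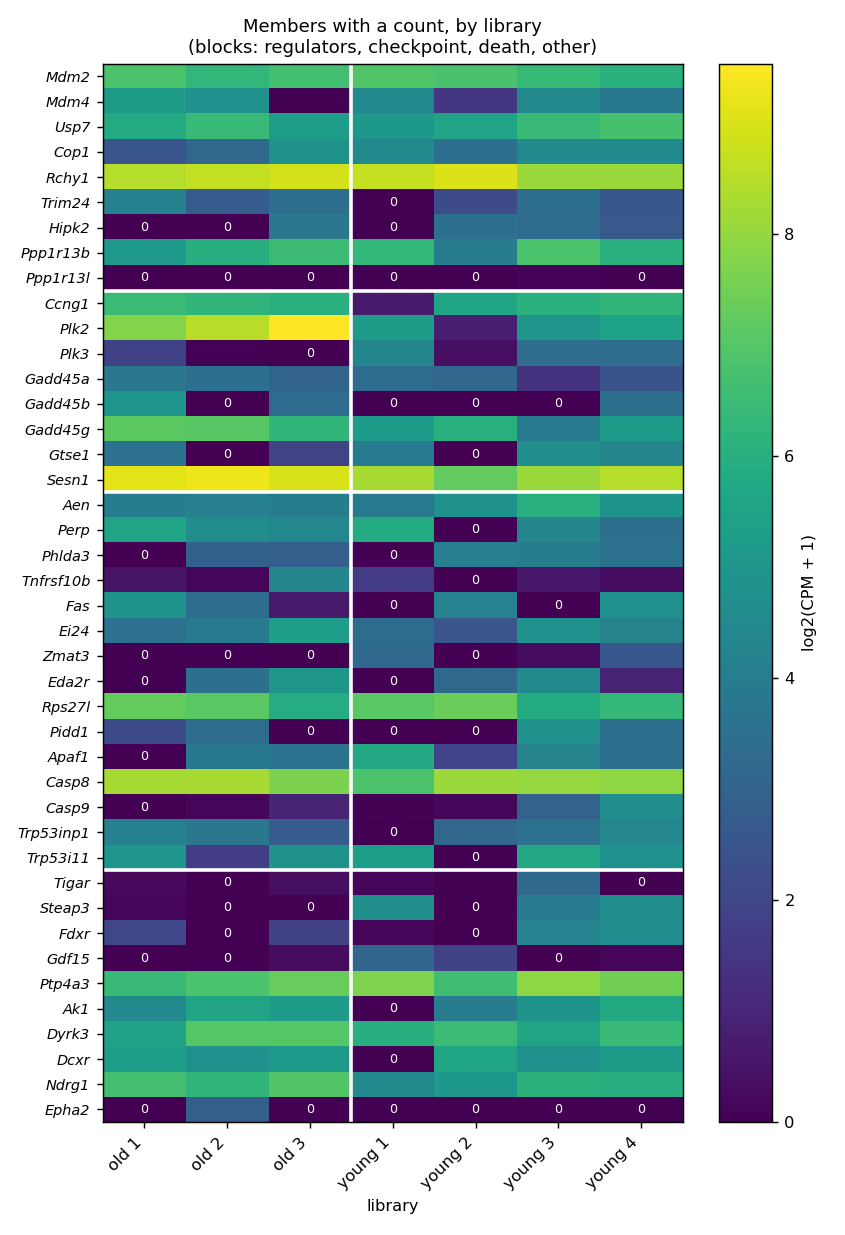
Level as log2(CPM + 1), colour scale, of the 42 members with a count (rows, in 4 blocks by role) in the 3 old and 4 young libraries (columns), with 0 written where a library held no count. Zeros are most frequent in young 1 and young 2, and Plk2 is brighter in the 3 old libraries than in the 4 young ones.

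Among the metabolic and other targets, Ndrg1 and Steap3 had an unadjusted p under 0.05, in opposite directions. These were 2 of 7 tested (28.6%), against 9.12% of all tested genes. Ndrg1, a protein induced by hypoxia and stress, had 101.0, 75.1 and 123 CPM in the old libraries and 21.3, 33.1, 69.2 and 63.1 CPM in the young ones. The groups did not overlap, but old 2 and young 3 were close. The log2 fold change was 1.095 ± 0.46 (unadjusted p = 0.0412 and adjusted p = 0.499, edgeR), and 0.59 without young 1 and young 2 together. Only 9 of 16 other settings gave Ndrg1 an unadjusted p under 0.05. Steap3, the endosomal ferrireductase that readies iron for use, had 0.113, 0 and 0 CPM in the old libraries and 25.4, 0, 14.1 and 25.4 CPM in the young ones. It was nearly absent from old HSCs, with 3 counts in all against 1698 in young, but also absent from young 2. Pooled over libraries, the level was 475-fold higher in young HSCs (exact 95% interval 162 to 2304, counting error only), and the unadjusted p was 0.0142 and the adjusted p 0.327 in edgeR. DESeq2 called it lower in old (adjusted p = 0.00242), and limma-voom did not (adjusted p = 0.410). Without young 1, young 3 or young 4, Steap3 had too few libraries with counts to be tested.

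Tigar, a phosphatase that diverts glucose from glycolysis, had at most 0.269 CPM in old HSCs and 8.85 CPM in young 3, with at most 0.131 CPM in the other young libraries. Fdxr, a mitochondrial reductase of electron transfer, had 0 to 3.13 CPM in old HSCs, against 17.8 and 23.6 CPM in young 3 and young 4 and at most 0.0876 CPM in young 1 and young 2. Gdf15, a secreted stress cytokine, had at most 0.230 CPM in old HSCs and 7.58 and 2.65 CPM in young 1 and young 2. Each of these 3 was thus high in only 1 or 2 young libraries. Epha2, an ephrin receptor, was found in old 2 alone at 6.44 CPM.

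The remaining targets had overlapping ranges. Ptp4a3, a tyrosine phosphatase, had 88.2, 112 and 159.2 CPM in old and 208, 95.6, 240.5 and 178 CPM in young libraries (log2 fold change -0.59 ± 0.35, adjusted p = 0.729, edgeR). Dyrk3, a kinase known to dissolve stress granules, had 43.7, 127.6 and 129.9 CPM in old and 63.5, 90.3, 46.2 and 84.2 CPM in young libraries (0.50 ± 0.43, adjusted p = 0.892). Ak1, an adenylate kinase, and Dcxr, a xylulose reductase, were each at 0 in young 1 alone. In the other libraries Ak1 had 22.2 to 46.8 CPM in old and 15.2 to 54.9 CPM in young HSCs, and Dcxr had 26.8 to 39.96 CPM in old and 26.8 to 49.2 CPM in young HSCs.

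Of 48 further genes of the pathway, 43 were tested and none passed over all genes in edgeR, while 2 had higher and 3 lower levels in old HSCs at an unadjusted p under 0.05. These 5 were 11.6% of the 43, near the 9.12% of all tested genes. DESeq2 called Btg2 and Sat1, 4.65% of the 43, against 3.75% of all tested genes. Their median log2 fold change was -0.05. Trp53 itself had 300.4, 204 and 289.9 CPM in the old libraries and 129.6, 249, 255 and 288 CPM in the young ones, with young 1 lowest (0.20 ± 0.30, adjusted p = 0.965; -0.04 without young 1 and young 2 together). The groups overlapped. Cdkn2a, whose Arf product inhibits Mdm2, and Pmaip1, a death gene of the BCL2 family, had no count in any library.

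The targets among these genes had log2 fold changes of both signs. Cdkn1a, the inhibitor p21, had 14.0, 13.6 and 9.26 CPM in the old libraries and 0, 0, 4.77 and 4.21 CPM in the young ones. The old libraries lay above the young, but the spread left a log2 fold change of 2.45 ± 2.06 (adjusted p = 0.884, edgeR). Bax, a pore-forming death protein, had 54.0, 67.5 and 46.4 CPM in old and 91.9, 82.8, 57.4 and 77.5 CPM in young libraries, with old 2 above young 3 (-0.47 ± 0.34, adjusted p = 0.840). Btg2, an antiproliferative gene that is also among the immediate early genes, had 188, 141 and 296 CPM in old and 45.8, 24.0, 63.0 and 47.3 CPM in young libraries (2.21 ± 0.39, adjusted p = 0.0760). Its groups did not overlap, and its adjusted p was 8.49e-05 with DESeq2. Sat1, a polyamine-degrading enzyme, had 441, 329 and 518 CPM in old and 223, 286, 123 and 155 CPM in young libraries (1.13 ± 0.31, adjusted p = 0.216 with edgeR and 0.0330 with DESeq2).

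Chek1 and Tsc2 were among the further genes with lower levels in old HSCs at an unadjusted p under 0.05. Chek1, the checkpoint kinase of stalled replication, had 10.2, 27.9 and 12.7 CPM in old and 25.5, 78.4, 71.7 and 27.8 CPM in young libraries (-1.59 ± 0.69, adjusted p = 0.524, edgeR). Old 2 lay just above the lowest young libraries. Tsc2, which restrains mTOR, had 4.65, 2.29 and 10.2 CPM in old and 26.4, 22.3, 60.2 and 16.7 CPM in young libraries (-2.46 ± 0.94, adjusted p = 0.417). Its groups did not overlap.

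**Figure D4:**
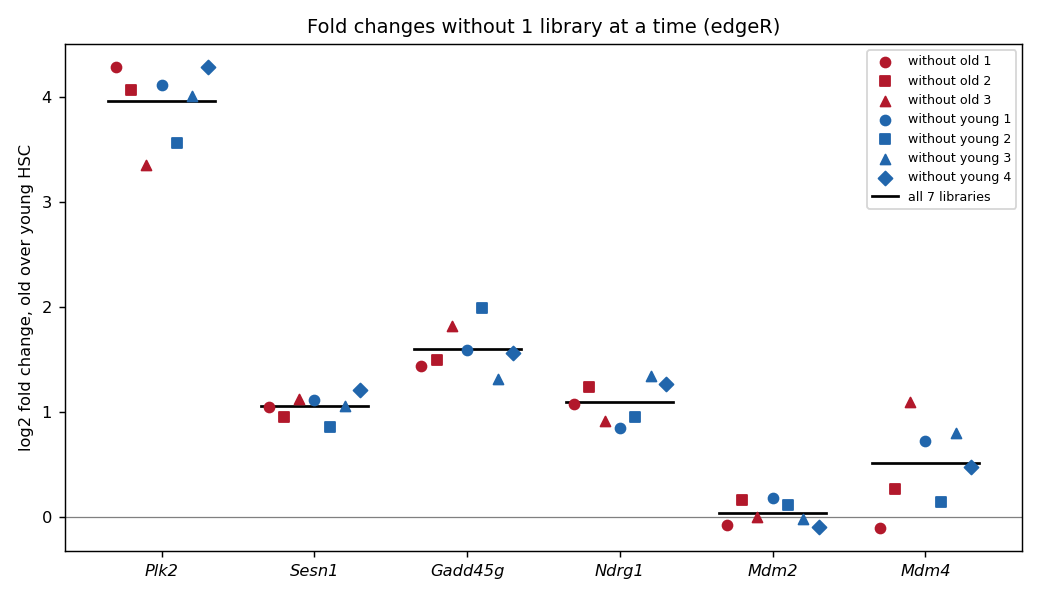
Log2 fold change (old over young HSCs, edgeR, vertical axis) of 6 members with all 7 libraries (black line) and without 1 library at a time (red marks for an old library left out, blue for a young one). Plk2, Sesn1, Gadd45g and Ndrg1 stay above 0 in all 7 fits, between 3.36 and 4.29 for Plk2, and Mdm2 and Mdm4 lie on both sides of 0.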

How the data were processed

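Bulk RNA sequencing of sorted HSCs gave 3 old and 4 young libraries. Per the labels' protocols, cDNA from polyadenylated RNA was made with Smart-seq+ and libraries with Nextera XT, a kit that does not mark strand. The submitters' processing notes name Trimmomatic, FastQC, STAR, featureCounts and build mm9, without versions or settings. The deposited values were taken to be raw read counts per gene symbol, neither scaled nor pooled. No molecular identifiers are stated, so counts include amplification copies. Genes with near-identical copies or overlapping neighbours may have lost or gained reads.

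Libraries were grouped by their titles, which match the column names. Genes were kept with filterByExpr (minimum count 10, minimum total 15), scaled by TMM and tested with the quasi-likelihood test of edgeR 4.0.16 in R 4.3.3, 2-sided. Age group was the single term, and p-values were adjusted over the 11506 genes tested (Benjamini-Hochberg). SE is the absolute log2 fold change over the square root of F. Alternatives used DESeq2 1.42.0, limma-voom (limma 3.58.1), other scalings and filters, a replicate block and leaving out libraries, and the pair young 1 and young 2 was left out together after the data were examined. In simulated counts with the spread of these libraries (11016 genes tested), the test called 2 of 46 genes at a true 2-fold change and 12 of 47 at 4-fold. It called 24 of 50 at 8-fold, while of the 50 at 16-fold it found 23. None of the 61 calls was false. The simulation set no library apart, as young 1 and young 2 were here, so its rates may not hold for the real libraries. All pairs of libraries differed by more than sampling noise. Principal components used log2 CPM with a prior count of 2.

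The members and gene lists were chosen with earlier results of these data known. Every member is named. Values in each library are given for members with an unadjusted p under 0.05 or with groups that do not overlap, for Mdm2, Mdm4, Ccng1, the Gadd45 genes, Zmat3 and Fas, and for some others after their values were seen. Of the further pathway genes, Trp53, Cdkn1a, Bax and those with an unadjusted p under 0.05 are described, except 1 that is not reported here, and Sesn2 and Sesn3 were added after their values were seen. TGACGTCA and TGANTCA were searched after the values were seen. Of 5 T and NK cell markers, 6 neutrophil and monocyte, 6 B cell, 6 erythroid, 5 megakaryocyte and 6 endothelial and stromal markers in the table, the summed levels were 21.3 to 105, 0.0378 to 0.999, 73.4 to 192, 11.1 to 44.2, 130.01 to 282 and 89.2 to 155.9 CPM in old HSCs, and 65.4 to 382, 0.526 to 10.4, 122 to 185, 71.6 to 109.9, 215 to 457 and 58.2 to 126.6 CPM in young HSCs.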

Additional observations from a re-analysis of the deposited data

Results flagged for a closer look

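Among 50 genes examined for 1 library far from the others in the 4 young libraries, 5 were found. Chance flags about 1 in 20 where values follow a normal distribution, which was not tested here. That rate does not apply to Gadd45b and Ppp1r13l, which stand apart by being at 0 in the 3 other libraries. Nor does it apply to Tigar, with 0 to 3 counts in each of its other young libraries. Cop1 had 10.2 CPM in young 2, while the 3 others had 22.5 to 22.6 CPM. Casp8 had 113 CPM in young 1, while the 3 others had 248 to 272 CPM. Gadd45b had 10.4 CPM in young 4 and none elsewhere in young HSCs. Tigar had 8.85 CPM in young 3, against at most 0.131 CPM. Ppp1r13l had 0.0722 CPM in young 3, the worth of 2 counts, and none elsewhere.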

How the results depend on the processing

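Of 561 log2 fold changes of the members over 16 other settings, 516 kept their direction and their side of the threshold, 5 newly passed it and 40, in 16 members, changed sign. Plk2, Sesn1, Gadd45g, Ndrg1 and Steap3 kept their direction in every setting that gave a value. The members called, 0 in edgeR, were 3 with DESeq2, 1 when only genes averaging 50 CPM or more were tested, and 0 to 1 when 1 library was left out. Members with an unadjusted p under 0.05, 5 in all, were 3 among genes averaging 50 CPM or more, where 17.4% of all tested genes passed, and 8 without young 1 and young 2 together, where 13.9% did, against 9.12% with all libraries and genes. They were 3 to 6 when 1 library was left out, where 6.92% to 12.4% of all tested genes passed. Not all 37 members averaged 50 CPM or more. Those tested at that level were Mdm2, Usp7, Rchy1, Ppp1r13b, Ccng1, Plk2, Gadd45g, Sesn1, Casp8, Rps27l, Ptp4a3, Dyrk3 and Ndrg1. The genes called among all tested, 29, were 431 with DESeq2, 50 with limma-voom, 16 with library size alone, 130 among genes averaging 50 CPM or more, 7 without young 1 and young 2, and 2 to 18 without 1 library. With a replicate block 0 genes and 0 members were called, with 694 genes and 6 members at an unadjusted p under 0.05. After centring within each group, same-numbered old and young libraries correlated at 0.03, -0.07 and -0.01. Differently numbered ones correlated at -0.07 to 0.08. With so few libraries per group, this check cannot exclude that the numbers pair the samples, and young 4 has no partner. Of the further pathway genes 2 were called with DESeq2, 1 with no filter on low counts and 1 among those averaging 50 CPM or more. Of the immediate early and mitotic genes, 2 in edgeR, there were 17 with DESeq2, 1 with DESeq2 size factors, 1 with upper quartile factors, 0 with library size alone, 5 with no filter, 10 among those averaging 50 CPM or more, 0 with the replicate block, 0 without young 1 and young 2, and 0 to 1 without 1 library.

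Log2 fold changes that changed sign were, with limma-voom, Mdm4 -1.40, Ppp1r13b 0.03, Pidd1 0.42 and Trp53i11 0.55. Mdm2 was -0.05 with library size alone and -0.02 among genes averaging 50 CPM or more. With the replicate block they were Mdm2 -0.09, Usp7 0.19, Ppp1r13b 0.14, Rps27l -0.02, Pidd1 7.13, Trp53i11 0.87 and Fdxr 0.72. Without young 1 and young 2 they were Ei24 -0.08, Trp53inp1 -0.40, Ak1 -0.26 and Trp53 -0.04. When 1 library was left out, the ranges were -0.09 to 0.18 for Mdm2, -0.10 to 1.1 for Mdm4, -10.37 to 0.04 for Hipk2, -0.50 to 0.25 for Ppp1r13b, -1.11 to 1.16 for Fas, -0.17 to 0.40 for Rps27l, -0.13 to 0.93 for Trp53inp1, -0.54 to 0.13 for Usp7, -1.59 to 4.55 for Tnfrsf10b, -0.26 to 1.02 for Ei24, -0.58 to 2.25 for Eda2r, -0.14 to 0.70 for Dcxr and -2.48 to 0.32 for Pidd1. The causes were not tested. With standard errors such as 2.21 for Fas, 2.57 for Hipk2 and 2.81 for Gadd45b, all at 0 in some libraries, differences of several fold were not detectable for such members.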
